A study of Sus scrofa with 8 samples.

Results

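Transcripts of 8 enzymes of the tricarboxylic acid cycle were compared between corticosteroid-treated and control muscle of mechanically ventilated piglets. The enzymes were citrate synthase (CS), the isocitrate dehydrogenases IDH2 and IDH3A, oxoglutarate dehydrogenase (OGDH), a succinate-CoA ligase subunit (SUCLG1), fumarate hydratase (FH) and the malate dehydrogenases MDH1 and MDH2. Members were the probe sets whose only gene symbol in the platform's annotation is one of these, which gave 10 of the 23999 probe sets of the array, for all 8 genes. Citrate synthase and IDH3A had 2 probe sets each and the other members 1, and the probe set of highest mean level leads below. All 10 lay above the filter on low levels, and no genome build or coordinates are given for them.

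The tissue was biceps femoris, a muscle of the hind limb, taken from female domestic piglets in a porcine model of acute quadriplegic myopathy, the limb weakness of intensive care patients. In both groups the animals were anaesthetised with isoflurane, with added morphine and ketamine, ventilated through a tracheotomy for 5 days and given glucose, crystalloid fluid, streptomycin and benzylpenicillin. The 4 corticosteroid arrays came from piglets that also received bolus doses of hydrocortisone over the 5 days, in a text that speaks of 8 animals with a mean weight of 26.4 kg. The 4 control arrays came from piglets labelled as given sedation and ventilation, and the protocol text of these samples, on 4 animals of 25.5 kg, adds endotoxin at 36 µg per kg per hour for 1 hour. The series text also names pancuronium, a neuromuscular blocker, for animals it does not specify, so that the effects of these agents, of any processing batch and of hydrocortisone cannot be told apart. The controls were themselves immobilised for 5 days, and no array of untreated muscle was used here. The labels give no age and do not state that the arrays of a group came from separate animals, so the p-values describe the spread between arrays, which may be technical.

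The tricarboxylic acid cycle runs in the mitochondrial matrix. It oxidises the acetyl group of acetyl-CoA to carbon dioxide and passes the electrons, as NADH and reduced flavin, to the respiratory chain. In skeletal muscle its enzymes are most abundant in oxidative fibres, and citrate synthase activity is widely used as a measure of mitochondrial content. Not all proteins described here work in the cycle itself. MDH1 is the cytosolic malate dehydrogenase of the malate-aspartate shuttle, and IDH2 is a mitochondrial isocitrate dehydrogenase that yields NADPH, whereas IDH3A is the catalytic subunit of the NAD-dependent enzyme of the cycle.

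The 8 arrays had similar median log2 levels, from 5.863 to 5.965. The rows of the corticosteroid columns were re-assigned to the probe IDs in the order that ignores full stops, which moved 9389 probe sets (39.1%). Over the moved probe sets the correlation of group means, taken across probe sets, was r = 0.9888 after re-assignment and r = 0.0997 as deposited. Probe sets are not independent replicates. Of the members, CS, IDH3A, OGDH, FH and MDH2 lay in rows that stay in place, and the values of IDH2, SUCLG1 and MDH1 on corticosteroid arrays rest on the re-assignment. Of 8 skeletal muscle markers listed, 4 were measured, all of them in moved rows. Creatine kinase (CKM) had log2 levels of 13.99 to 14.07 on corticosteroid arrays and 13.86 to 13.99 on control arrays, and the mean level over the 8 arrays was 13.58 for titin (TTN), 12.76 for desmin (DES) and 8.07 for the transcription factor MYOD1. A log2 level is read here within a probe set only, because levels of different probe sets cannot be ranked on this array.

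No difference in transcript level between corticosteroid-treated and control muscle passed the test for any of the 8 cycle enzymes. For 7 of the 8 lead probe sets the difference between group means was smaller than the SD of either group, and IDH2 was the exception. In limma, with Benjamini-Hochberg adjustment over the 14361 probe sets tested, 0 of 8 members had an adjusted p under 0.05, and so did 0 of all probe sets tested (0%). At an unadjusted p under 0.05 there were 0 of 8 members, against 9.49% of all probe sets tested. The corticosteroid mean was higher for 7 of the 8 members, against 52.8% of all probe sets. The groups did not overlap for 0 of 8 members, against 5.56% of all probe sets. The median log2 difference, corticosteroid minus control, was 0.09 over the 8 members and 0.02 over all probe sets tested. The members' differences lay between -0.20 and 0.35. The count of 7 higher means depended on single arrays: leaving out corticosteroid replicate 4 brought it to 3, and leaving out control replicate 3 to 4.

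**Figure D1:**
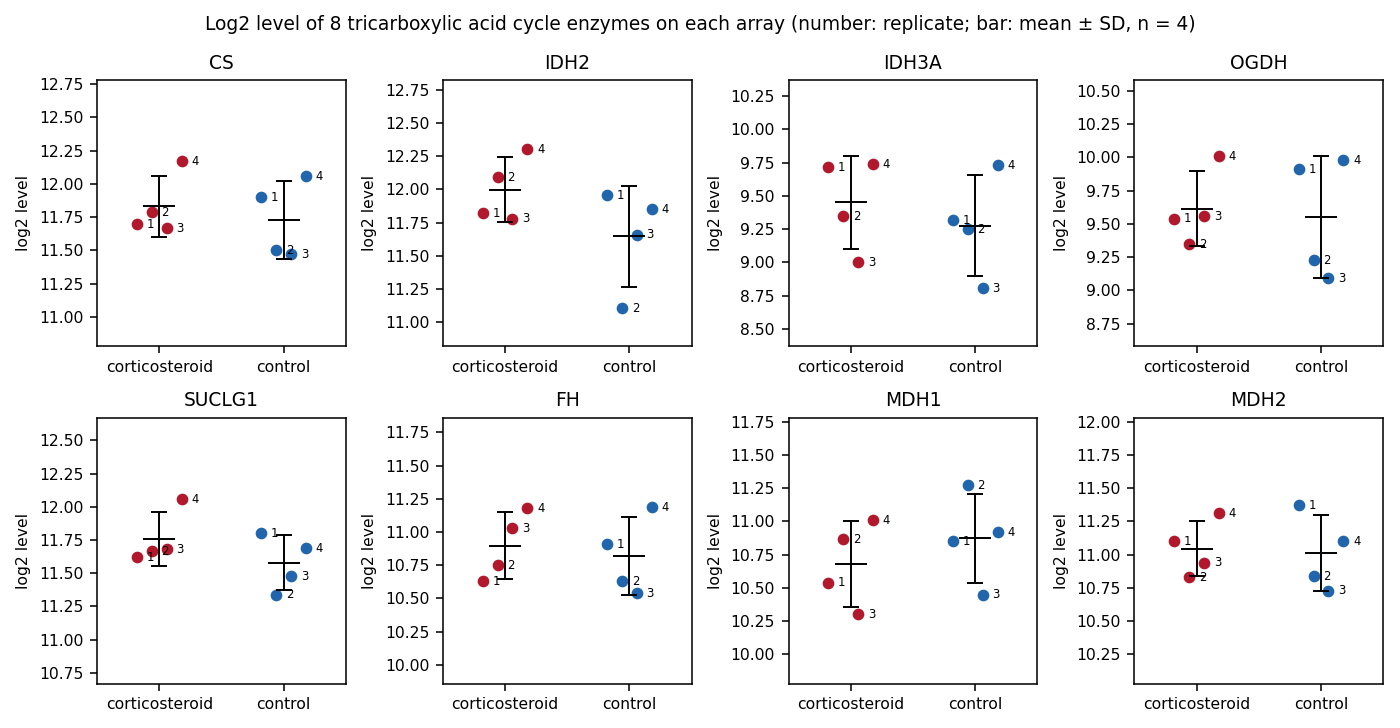
Log2 level (y axis, a window of 2 log2 units around each gene's mean) of the lead probe set of each of the 8 enzymes on the 4 corticosteroid arrays (red, left) and the 4 control arrays (blue, right). Numbers mark the replicate and bars the mean ± SD (n = 4). The groups overlap in every panel, and corticosteroid replicate 4 is the highest array in 5 panels.

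Citrate synthase, which joins acetyl-CoA to oxaloacetate and so opens the cycle, had log2 levels of 11.70, 11.79, 11.67 and 12.17 on corticosteroid replicates 1 to 4 and 11.90, 11.50, 11.47 and 12.06 on control replicates 1 to 4. The highest array was a treated one and the lowest 2 were controls, with wide overlap. The log2 difference was 0.10 (SE 0.18, 95% interval -0.31 to 0.51), a fold of 1.07 with an interval of 0.809 to 1.42 (adjusted p = 0.86 in limma). It was -0.01 without corticosteroid replicate 4. The other citrate synthase probe set had 9.60, 9.89, 9.89 and 10.38 on corticosteroid arrays and 9.88, 9.40, 9.37 and 10.05 on control arrays. It ordered the arrays much as the lead probe set did (r = 0.94 over 8 arrays) and differed by 0.26 (SE 0.23, adjusted p = 0.695 in limma), or by 0.12 without corticosteroid replicate 4.

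IDH2 had the largest difference of the 8 lead probe sets. Its log2 levels were 11.82, 12.09, 11.78 and 12.30 on corticosteroid arrays and 11.96, 11.11, 11.66 and 11.85 on control arrays. Corticosteroid replicates 2 and 4 lay above all controls, control replicate 2 lay far below the others, and the other treated arrays fell within the control range. The difference was 0.35 (SE 0.21, 95% interval -0.11 to 0.81, adjusted p = 0.585 in limma), and it was 0.17 without control replicate 2. Without both control replicate 2 and corticosteroid replicate 4 it was 0.07. As deposited, before the re-assignment of rows, the same probe set would differ by -5.29.

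IDH3A had log2 levels of 9.72, 9.35, 9.00 and 9.74 on corticosteroid arrays and 9.32, 9.25, 8.81 and 9.73 on control arrays. Both groups spanned almost the same range. The difference was 0.17 (SE 0.25, adjusted p = 0.822 in limma) and 0.02 without control replicate 3. The second IDH3A probe set, which correlated with the first at r = 0.84 over 8 arrays, stood further apart. It had 8.98, 9.03, 8.21 and 9.30 on corticosteroid arrays and 8.43, 8.34, 7.88 and 8.62 on control arrays. There 3 of the 4 treated arrays lay above all controls, while corticosteroid replicate 3 lay below 3 of them. The difference was 0.56 (SE 0.27, 95% interval -0.04 to 1.16, adjusted p = 0.54 in limma), the largest of the 10 member probe sets. The 2 probe sets of this gene therefore gave differences of 0.17 and 0.56 for the same RNA.

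OGDH, the decarboxylating subunit of the oxoglutarate dehydrogenase complex, had log2 levels of 9.54, 9.35, 9.56 and 10.01 on corticosteroid arrays and 9.91, 9.23, 9.09 and 9.98 on control arrays. The control arrays formed a high pair (replicates 1 and 4) and a low pair (replicates 2 and 3), and 3 of the 4 treated arrays lay between the pairs. The difference was 0.06 (SE 0.26, 95% interval -0.51 to 0.64, adjusted p = 0.947 in limma). It was -0.04 without control replicate 2, -0.09 without control replicate 3 and -0.07 without corticosteroid replicate 4.

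SUCLG1 encodes the alpha subunit of succinate-CoA ligase, which makes a nucleoside triphosphate directly in the cycle. Its log2 levels were 11.62, 11.67, 11.68 and 12.06 on corticosteroid arrays and 11.80, 11.34, 11.48 and 11.69 on control arrays. Of the treated arrays, 3 lay close together and replicate 4 stood above them and above all controls. The difference was 0.18 (SE 0.16, 95% interval -0.17 to 0.53, adjusted p = 0.691 in limma), and it was 0.08 without corticosteroid replicate 4. As deposited, before the re-assignment, it would be -7.60.

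Fumarate hydratase, which adds water to fumarate to give malate, had log2 levels of 10.63, 10.75, 11.03 and 11.18 on corticosteroid arrays and 10.91, 10.63, 10.54 and 11.19 on control arrays. The 2 groups covered almost the same range. The difference was 0.08 (SE 0.20, 95% interval -0.36 to 0.52, adjusted p = 0.902 in limma), and -0.01 both without control replicate 3 and without corticosteroid replicate 4.

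The malate dehydrogenases oxidise malate to oxaloacetate in the matrix (MDH2) or interconvert the same pair in the cytosol (MDH1). MDH2 had log2 levels of 11.10, 10.83, 10.94 and 11.31 on corticosteroid arrays and 11.37, 10.84, 10.73 and 11.10 on control arrays. It had the smallest difference of the 8 members, 0.03 (SE 0.18, 95% interval -0.38 to 0.45, adjusted p = 0.959 in limma), or a fold of 1.02 with an interval of 0.77 to 1.36. It was -0.02 without control replicate 2, -0.06 without control replicate 3 and -0.05 without corticosteroid replicate 4. MDH1 was the only member with a lower corticosteroid mean, at 10.54, 10.87, 10.30 and 11.01 on corticosteroid arrays against 10.85, 11.27, 10.45 and 10.92 on control arrays. Control replicate 2 was its highest array, although it lay below the gene's mean for the other 7 members. The difference was -0.20 (SE 0.22, 95% interval -0.69 to 0.30, adjusted p = 0.768 in limma), and -0.06 without control replicate 2. As deposited it would be -3.95.

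**Figure D2:**
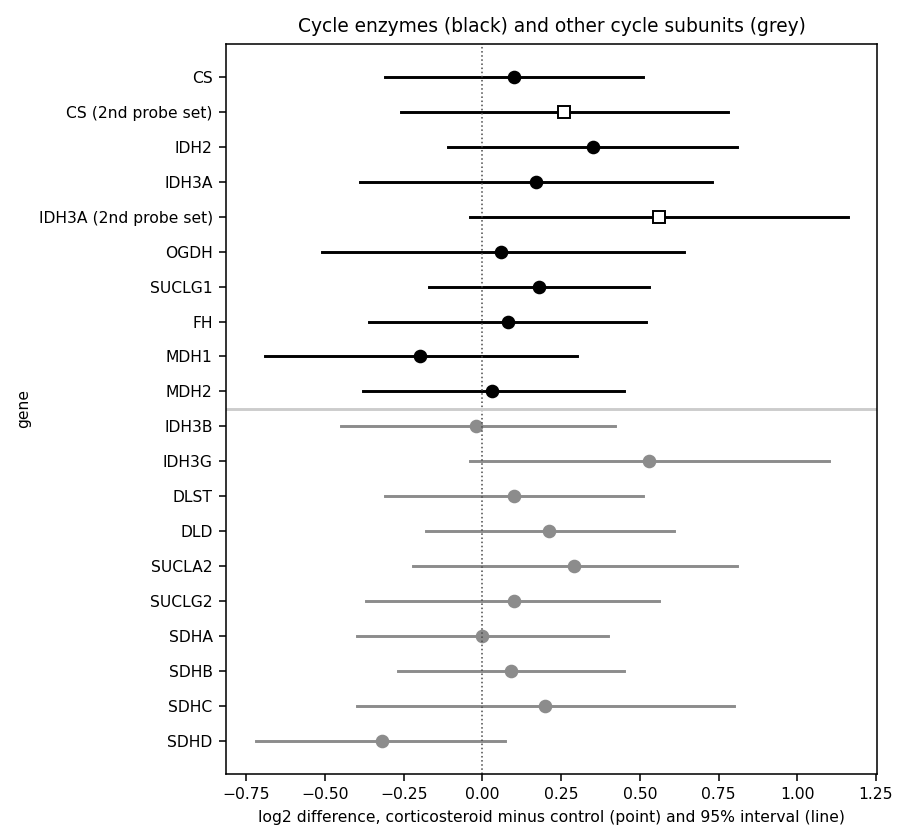
Log2 difference, corticosteroid minus control (x axis), with its 95% interval from limma, for the 10 member probe sets (black, open squares for the second probe set of a gene) and 10 other subunits of the cycle (grey). Every interval crosses 0, and the second IDH3A probe set (0.56) and IDH3G (0.53) lie furthest to the right.

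Both enzyme pairs that catalyse one carbon step by different routes were compared within arrays. The log2 level of MDH2 minus that of MDH1, centred on its mean over the 8 arrays, was 0.31, -0.29, 0.39 and 0.05 on corticosteroid arrays and 0.26, -0.68, 0.02 and -0.07 on control arrays. The group difference was 0.23 (exact two-sided permutation p = 0.4, adjusted p = 0.571 over 2 pairs). For IDH2 minus IDH3A the centred values were -0.36, 0.29, 0.33 and 0.10 on corticosteroid arrays and 0.18, -0.60, 0.39 and -0.33 on control arrays. The group difference was 0.18 (exact two-sided permutation p = 0.571, adjusted p = 0.571). Neither pair passed, and 4 arrays against 4 allow no p below 0.0286. Control replicate 2 had the lowest value of both pairs, and without it the differences were 0.04 for MDH2 minus MDH1 and 0.01 for IDH2 minus IDH3A.

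The members lay on the same side of their means on some arrays and were split on others. Corticosteroid replicate 4 and control replicate 4 lay above the gene's own 8-array mean for 8 of 8 members, and control replicate 3 lay below it for 8 of 8. Control replicate 1 was above for 7 and control replicate 2 below for 7, with MDH1 the exception on control replicate 2. The other treated arrays were split, with 2 members above and 6 below on corticosteroid replicate 1, 4 and 4 on replicate 2, and 2 and 6 on replicate 3. In the corticosteroid group, replicate 4 was thus the single array on which all members lay on one side. The highest level of the 8 arrays was on corticosteroid replicate 4 for 5 of 8 members, against 20.5% of all probe sets tested. The lowest was on control replicate 3 for 5 of 8 members, against 14.7% of all probe sets. Averaged over the members, the centred log2 level was -0.03, -0.02, -0.12 and 0.36 on corticosteroid replicates 1 to 4 and 0.14, -0.21, -0.33 and 0.20 on control replicates 1 to 4. The control arrays alone therefore ran from -0.33 to 0.20, and 3 of the 4 treated arrays lay within that range.

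**Figure D3:**
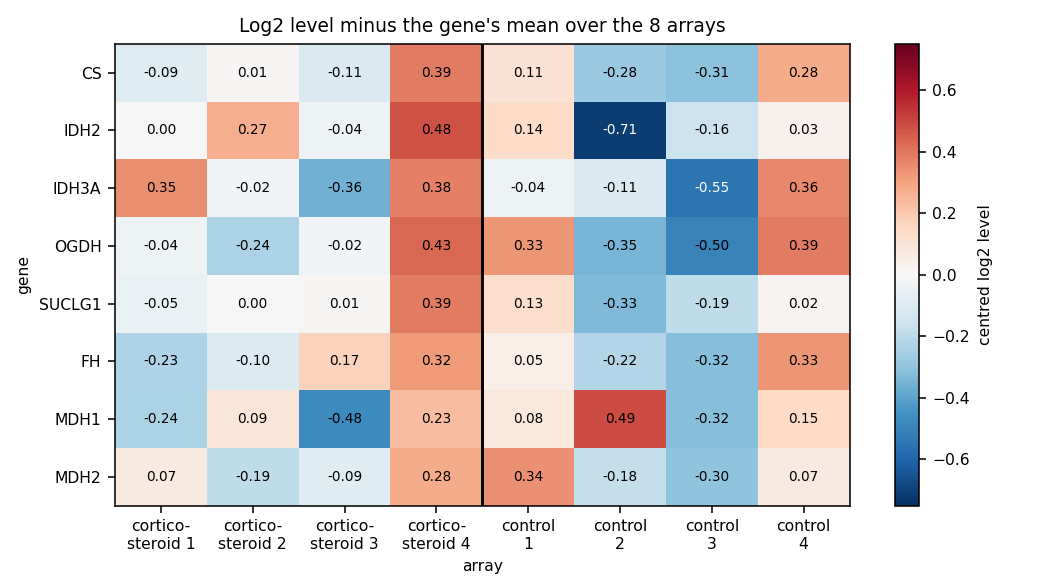
Log2 level of each enzyme minus its mean over the 8 arrays (colour scale and printed value), with corticosteroid arrays to the left of the line and control arrays to the right. Corticosteroid replicate 4 and control replicate 4 are positive in all rows and control replicate 3 is negative in all rows. The columns of corticosteroid replicates 1 to 3 hold both signs (IDH3A at 0.35, -0.02 and -0.36), and MDH1 departs from the other rows on control replicate 2 (0.49).

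Over the 8 arrays the 28 pairs of members had a median Pearson r of 0.64, and 27 of them were positive. After the group means were subtracted the median was 0.66. The 21 pairs without MDH1 had a median r of 0.75 (range 0.43 to 0.92), and the 7 pairs with MDH1 a median of 0.21 (range -0.16 to 0.44). All pairs of the 5406 tested genes had a median r of 0.00. The points are arrays, which all genes share, so these values are a description and no test was made of them. Without corticosteroid replicate 4 and control replicate 3, which were picked once the values were known, the median r was 0.39 over the 28 pairs and 0.56 over the 21 pairs without MDH1.

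The genes most like the mean of the members over the 8 arrays were SMARCD3 (r = 0.964), LOC100520426 (r = 0.957), UQCC (r = 0.949), PRKACA (r = 0.942) and UBE2E3 (r = 0.936), out of 5398 compared. After the group means were subtracted, the first 5 were TTI1 (r = 0.993), ADSL (r = 0.992), LOC100520426 (r = 0.983), SMARCD3 (r = 0.975) and B3GAT3 (r = 0.971). SMARCD3 was also the gene most like citrate synthase (r = 0.963). For the others the nearest gene was EMC7 for IDH2 (r = 0.984), WDR46 for IDH3A (r = 0.943), EIF2B1 for OGDH (r = 0.955), SNUPN for SUCLG1 (r = 0.986), IGF2 for FH (r = 0.961), RAB10 for MDH1 (r = 0.944) and C1QTNF12 for MDH2 (r = 0.955). With so few arrays and so many genes, values of this size are the top of a long list. For each member except MDH1 the nearest gene also had a higher corticosteroid mean, by 0.04 to 0.48, and RAB10 differed by -0.17. These signs are no separate evidence, because each gene was picked for its likeness over the same 8 arrays.

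Levels of cell type markers varied between the same arrays, and none of the markers tested passed after adjustment in limma. In a bulk sample, fewer cells of a type and less RNA per cell cannot be told apart. The mean of the centred log2 levels of the 8 slow-fibre markers was -0.50, -0.64, -0.11 and -0.87 on corticosteroid arrays and 0.31, 0.98, 1.08 and -0.25 on control arrays. Lower corticosteroid means were found for 8 of 8, against 6780 of all 14361 probe sets tested. The 7 fast-fibre markers measured stood at 0.09, 0.25, 0.25 and 0.37 on corticosteroid arrays and 0.17, -0.92, -0.30 and 0.11 on control arrays. Higher corticosteroid means were found for 7 of 7, against 52.8% of all probe sets tested. The slow-fibre markers TNNI1, TNNC1, MYL2 and ATP2A2 and the fast-fibre markers TNNC2 and MYLPF lay in moved rows. Averaged over each list, control replicates 2 and 3 thus had the highest slow-fibre, the lowest fast-fibre and the lowest cycle enzyme levels. MDH1, however, was highest on control replicate 2. Corticosteroid replicate 4 had the lowest slow-fibre, the highest fast-fibre and the highest mean cycle enzyme level. The other arrays did not all follow that order. Control replicate 1 had 0.31 for slow-fibre markers and 0.14 for the cycle enzymes, and control replicate 4 had -0.25 and 0.20. Corticosteroid replicates 1 to 3 had lower slow-fibre values than control replicate 1, but cycle enzyme values of -0.03, -0.02 and -0.12. The 5 macrophage and leukocyte markers tested stood at -0.04, -0.08, -0.20 and -0.84 on corticosteroid arrays and 0.16, 1.56, -0.24 and -0.32 on control arrays. The 5 adipocyte markers tested ranged from -0.85 to 1.19 on corticosteroid arrays and from -0.72 to 0.27 on control arrays. The 5 endothelial markers tested ran from -0.15 to 0.11 on corticosteroid arrays and from -0.24 to 0.20 on control arrays. The 4 fibroblast markers tested ran from -0.35 to 0.31 on corticosteroid arrays and from -0.34 to 0.75 on control arrays, with control replicate 2 highest. The part of these markers in the levels of the cycle enzymes was not tested.

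Among the other subunits of the cycle, no difference passed either. Of the pathway genes described besides the members, IDH3G, SDHA, SDHD, DLAT, PDP2, ME2, SLC25A12, NNT, VDAC1, CKMT2 and PHB2 lay in moved rows, so that their values on corticosteroid arrays rest on the re-assignment. Of 12 genes listed, 11 were on the array under their symbol and 10 were tested, of which 8 had higher and 2 lower corticosteroid means. None passed in limma. An unadjusted p under 0.05 was found for 0 of 10, against 9.49% of all probe sets tested. The groups did not overlap for 0 of 10, against 5.56% of all probe sets tested. Their median log2 difference was 0.10. IDH3G, a regulatory subunit of the NAD-dependent isocitrate dehydrogenase, had 9.63, 9.72, 9.95 and 10.69 on corticosteroid arrays and 9.73, 9.28, 9.26 and 9.61 on control arrays, with corticosteroid replicate 4 far above the rest. Its difference was 0.53 (SE 0.25, adjusted p = 0.543 in limma), and 0.30 without corticosteroid replicate 4. As deposited it would be -4.63. IDH3B, the other regulatory subunit, differed by -0.02.

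Succinate dehydrogenase belongs both to the cycle and, as complex II, to the respiratory chain. SDHA, the flavoprotein subunit, differed by 0.00 (SE 0.18), SDHB, the iron-sulphur subunit, by 0.09 (SE 0.16) and the membrane anchor SDHC by 0.20 (SE 0.27). SDHA and SDHB had 2 probe sets each, of which only the one of highest mean level is given. SDHD, the other anchor, had 10.72, 10.61, 10.33 and 11.04 on corticosteroid arrays and 11.12, 11.09, 10.82 and 10.97 on control arrays. Only corticosteroid replicate 4 reached the control range. The difference was -0.32 (SE 0.18, 95% interval -0.72 to 0.07, adjusted p = 0.566 in limma), and -7.90 as deposited.

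The pyruvate dehydrogenase complex supplies the cycle with acetyl-CoA, pyruvate carboxylase (PC) refills its oxaloacetate, and the carriers MPC1 and MPC2 bring pyruvate into the matrix. Of 13 genes listed for this step, 9 were on the array and tested, 6 with higher and 3 with lower corticosteroid means. An unadjusted p under 0.05 was found for 0 of 9, against 9.49% of all probe sets tested. The groups did not overlap for 1 of 9, against 5.56% of all probe sets tested. MPC1 had 11.66, 11.65, 11.59 and 11.71 on corticosteroid arrays and 11.46, 11.14, 11.45 and 11.59 on control arrays, so that the groups just failed to overlap. Its difference was 0.24 (SE 0.13, adjusted p = 0.572 in limma), and 0.15 without control replicate 2. PC differed by 0.65 (SE 0.40, adjusted p = 0.594 in limma), with corticosteroid replicate 2 highest at 9.80, and by 0.28 without that array. The subunits PDHA1, PDHB and DLAT differed by 0.04, 0.17 and -0.14.

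Pyruvate dehydrogenase kinase 4 (PDK4), which phosphorylates and inhibits the complex and is a known glucocorticoid-induced gene, was named after its values were seen. Its log2 levels were 12.59, 12.09, 12.30 and 7.27 on corticosteroid arrays and 13.11, 12.03, 11.30 and 11.92 on control arrays. Corticosteroid replicate 4 stood alone at the bottom, and the other 3 treated arrays lay within the control range. A second PDK4 probe set gave 12.10, 11.44, 11.55 and 5.78 on corticosteroid arrays and 13.03, 11.49, 10.39 and 11.57 on control arrays, with the same array apart. The difference at the first probe set was -1.03 (SE 1.06, adjusted p = 0.738 in limma), and 0.24 without corticosteroid replicate 4. That array was also the one with the highest mean level of the cycle enzymes.

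**Figure D4:**
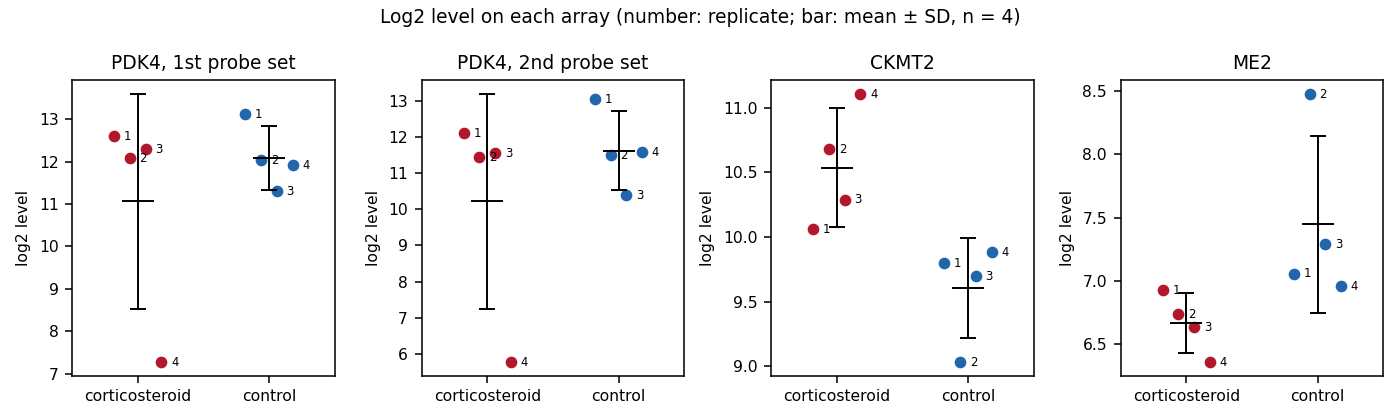
Log2 level (y axis, a separate range for each panel) of both PDK4 probe sets, CKMT2 and ME2 on corticosteroid arrays (red, left) and control arrays (blue, right). Numbers mark the replicate and bars the mean ± SD (n = 4). Corticosteroid replicate 4 lies far below all other arrays for PDK4, and the groups do not overlap for CKMT2 and ME2.

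Side reactions and carriers that exchange intermediates between the matrix and the cytosol were also listed. Of 17 genes, 13 were on the array and 12 tested, 6 with higher and 6 with lower corticosteroid means. The groups did not overlap for 2 of 12 (ME2 and NNT), against 5.56% of all probe sets tested. ME2, a mitochondrial malic enzyme that turns malate into pyruvate, had 6.93, 6.74, 6.64 and 6.36 on corticosteroid arrays and 7.06, 8.48, 7.29 and 6.96 on control arrays. It was the only gene of this list with an unadjusted p under 0.05 (1 of 12, against 9.49% of all probe sets tested). Its difference was -0.78 (SE 0.32, adjusted p = 0.5 in limma), and -0.44 without control replicate 2. As deposited it would be -2.25. NNT, the transhydrogenase that makes NADPH from NADH in the inner membrane, had 9.27, 8.95, 9.07 and 9.01 on corticosteroid arrays and 9.58, 9.39, 9.33 and 9.27 on control arrays. Its highest treated and lowest control array were both at 9.27 when rounded, so that the groups just failed to overlap. The difference was -0.32 (SE 0.16, adjusted p = 0.551 in limma), or -0.83 as deposited. The carriers SLC25A11 and SLC25A12 of the malate-aspartate shuttle differed by 0.39 and 0.60, the cytosolic aminotransferase GOT1 by 0.49 and the mitochondrial GOT2 by 0.07, each with groups that overlapped.

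Among 11 tested genes of mitochondrial content and biogenesis, 6 had higher and 5 lower corticosteroid means, and the median log2 difference was 0.00. CKMT2, the mitochondrial creatine kinase of striated muscle, was the exception in size. It had 10.06, 10.68, 10.29 and 11.11 on corticosteroid arrays and 9.80, 9.03, 9.70 and 9.88 on control arrays, and every treated array lay above every control. The difference was 0.93 (SE 0.28, 95% interval 0.32 to 1.55, unadjusted p = 0.00739 and adjusted p = 0.479 in limma), a fold of 1.91. As deposited, before the re-assignment of rows, CKMT2 would differ by -0.90. PHB2, a scaffold protein of the inner membrane, differed by 0.30 (SE 0.21), or by 0.16 without corticosteroid replicate 4. As deposited, PHB2 would differ by -2.04. The outer membrane channel VDAC1 differed by 0.04 (SE 0.12), the mitochondrial DNA factor TFAM by -0.30 (SE 0.24) and the coactivator PPARGC1A by -0.11 (SE 0.57), with log2 levels of PPARGC1A from 5.99 to 8.77 on corticosteroid arrays and from 6.91 to 8.18 on control arrays. VDAC1 had 2 probe sets and TFAM 4, of which only the one of highest mean level is given. Over the 4 lists together, 26 of 42 tested genes had higher corticosteroid means, against 52.8% of all probe sets tested. An unadjusted p under 0.05 was found for 2 of 42 (CKMT2 and ME2), against 9.49% of all probe sets, and none passed after adjustment in limma. The groups did not overlap for 4 of 42 (CKMT2, ME2, MPC1 and NNT), against 5.56% of all probe sets. After quantile normalization, and likewise after centring on the array median, that number was 3. Without corticosteroid replicate 3 only 1 had an unadjusted p under 0.05, and without corticosteroid replicate 2 the groups did not overlap for 7.

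The number of arrays limits the precision. The median standard error of the 8 log2 differences was 0.20, and a p above the threshold does not show that a member was equal in the groups. The upper bounds ran from 0.30 for MDH1 to 0.81 for IDH2 and the lower bounds from -0.69 for MDH1 to -0.11 for IDH2, so that a change of 1 log2 unit in either direction lay outside the interval of each lead probe set. The second IDH3A probe set is an exception among the 10 member probe sets, since its interval (-0.04 to 1.16) holds an increase of 1 log2 unit. All these intervals rest on the spread between arrays, which may be technical, so they may not bound a difference between animals.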

How the data were processed

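Gene expression was measured in biceps femoris on Affymetrix porcine arrays in 4 corticosteroid and 4 control samples assigned from their titles. The deposited values are log2 levels of 23999 probe sets, and the submitters' processing notes name MAS5 only. The scaling between arrays is not stated in the labels. Corticosteroid values were re-assigned to probe IDs sorted as text with full stops ignored (0 tied IDs), an order that was found from these data. The platform's annotation named 1 gene for 10069 probe sets, more than 1 for 198 and no gene for 13732, and all 8 members matched the RefSeq gene table (Sscrofa11.1) by gene ID. No sequence is shown.

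The 64 reporter probe sets were not used. The 14361 probe sets with a mean log2 level above the 40th percentile (5.27) were tested with lmFit and trended eBayes of limma 3.58.1 (R 4.3.3) at an adjusted p of 0.05. The fit was also run on simulated data with independent noise for each probe set. That setting lacks deviations shared by many probe sets of an array, so nothing is drawn from it here. Tables, exact permutation tests and figures used Python 3.11.15, pandas 2.3.3, numpy 2.4.6, scipy 1.17.1 and matplotlib 3.10.9. The members and the lists (4 of pathway genes and 7 of markers) were chosen with earlier results of these data known. Named were all members, pathway genes with an unadjusted p under 0.05, the 2 of smallest p in each pathway list, and the most correlated genes. Other pathway genes are further examples chosen after their values were seen, and the rest are markers. Except for the members and PDK4, only the probe set of highest mean level of a gene is described. Alternatives covered a replicate block, normalization, filters, scale, variance model, array weights, probe set choice, row order and left-out arrays.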

Additional observations from a re-analysis of the deposited data

Results flagged for a closer look

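Single arrays stood apart from the other 3 of their group for 9 of 108 gene and group combinations examined. The criterion is the gap to the nearest array over the range of the group set against Dixon's critical value, and chance passes it in about 1 of 20 groups. Among the members only SUCLG1 met it, with corticosteroid replicate 4 at 12.06 and the next array at 11.68.

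Corticosteroid replicate 4 also stood apart for PDK4, at 7.27 against 12.09 for the next lowest treated array, and for the channel VDAC1, at 12.16 with the next at 11.94. Corticosteroid replicate 2 was the array apart for SDHC (8.39, next 9.07), ME3 (7.07, next 7.55), ACO1 (9.87, next 9.56) and IDH1 (6.95, next 6.13). Among controls, PDP2 was high on control replicate 3 (6.22, next 5.61) and MPC2 low on control replicate 2 (11.18, next 11.67). The cause of these values was not tested.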

How the results depend on the processing

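None of the 8 members passed the adjusted threshold in limma under the alternatives that keep the re-assigned rows. With the rows as deposited, 5454 probe sets passed in place of 0, 6101 had an unadjusted p under 0.05 in place of 1363, and 3 members had such a p and groups that did not overlap. These were IDH2 (-5.29), SUCLG1 (-7.60) and MDH1. Also as deposited, CKMT2 differed by -0.90, IDH3G by -4.63, PHB2 by -2.04, ME2 by -2.25, NNT by -0.83 and SDHD by -7.90, MDH2 minus MDH1 by 3.98 and IDH2 minus IDH3A by -5.46, and 17 pathway genes had an unadjusted p under 0.05 and 17 had groups that did not overlap. Without a filter 2160 probe sets had an unadjusted p under 0.05.

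Of the 8 members 7 had higher corticosteroid means, 4 with array weights and 3 without control replicate 2 and corticosteroid replicate 4. Array weights gave -0.09 for OGDH, -0.02 for FH and -0.05 for MDH2, and 1 pathway gene at an unadjusted p under 0.05. Quantile normalization gave -0.0028 for MDH2. Averaging the probe sets of a gene gave -0.02 for IDH2 minus IDH3A. Without control replicate 2 and corticosteroid replicate 4 the difference was -0.09 for CS, -0.18 for OGDH, -0.07 for FH, -0.11 for MDH2 and 0.22 for PDK4. In the same setting it was 0.07 for IDH2, 0.07 for IDH3A, 0.0014 for SUCLG1 and -0.17 for MDH1.

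When each array was left out, the number of probe sets past the threshold ran from 0 to 1 (AKR1CL1, without control replicate 3). The number at an unadjusted p under 0.05 was lowest without corticosteroid replicate 4 (892) and highest without control replicate 1 (1783), and the number of members with higher means from 3 to 7. Pathway genes at an unadjusted p under 0.05 numbered 1 to 3, and those whose groups did not overlap 4 to 7. The differences ran from -0.01 to 0.21 for CS, -0.09 to 0.20 for OGDH, -0.01 to 0.21 for FH, -0.06 to 0.15 for MDH2 and -1.54 to 0.24 for PDK4. The cause of these shifts was not tested.

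The labels link same-numbered arrays of the 2 groups by the number only. Across probe sets, their deviations from the group means correlated at -0.246, 0.109, 0.105 and 0.053. Such values cannot show whether these arrays shared a batch. With the replicate block, 0 probe sets passed, 1332 had an unadjusted p under 0.05, 7 members had higher means and 3 pathway genes had an unadjusted p under 0.05.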
